A study of Homo sapiens with 12 samples.

Results

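The genes described here are 3 receptors of the EGF receptor family (EGFR, ERBB2 and ERBB3) and 7 of their ligands (AREG, EREG, HBEGF, TGFA, BTC, NRG1 and EPGN), 10 genes of the 27968 gene symbols in each library's table, chosen by symbol. They were measured by total RNA sequencing in 4 groups of 3 libraries: A549, a lung cancer cell line, on day 4 of Matrigel-based 3D culture; A549 in flat 2D culture at about 80% confluence; MDA-MB-231, a line from a breast carcinoma, on day 4 in Matrigel; and the same line in 2D at about 80% confluence. All 12 libraries came from untreated cells in DMEM with 10% FBS, so serum was present in every group. Matrigel is a basement membrane extract that brings its own matrix proteins and growth factors, and confluence in 2D was not matched to a density in 3D. The labels do not give the origin of the replicates (separate wells or separate experiments). The p-values therefore measure the spread between these libraries, which may be technical. That spread is estimated over all 4 groups together, although it differed between them. In bulk RNA, fewer cells expressing a gene and less RNA of it per cell cannot be told apart.

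EGFR, ERBB2 and ERBB3 are cell surface receptors that signal in pairs. EGFR binds AREG, EREG, HBEGF, TGFA, BTC and EPGN, ERBB3 binds the neuregulin NRG1 but has little kinase activity of its own, and ERBB2 has no known ligand and serves as the preferred partner of the others. The ligands are made as membrane-anchored precursors and are released by ADAM proteases, and active receptors drive the RAS, ERK and PI3 kinase pathways in epithelia and in carcinomas of lung and breast.

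The promoters of AREG and EREG are shown because these neighbouring ligand genes were the members that fell most in A549 in 3D culture. In the RefSeq annotation of GRCh38.p14, EPGN, EREG, AREG and BTC lie in this order on chromosome 4, with AREG next to EREG and 6 genes in all along the stretch. The windows span 250 bases before to 50 bases after the start site, are RefSeq sequences of GRCh38.p14, and both lie on the plus strand: AREG at chr4:74444886-74445185 and EREG at chr4:74364895-74365194. Capitals mark every match, on either strand, to 4 motifs: the cyclic AMP response element TGACGTCA, the AP-1 site TGANTCA, the TEAD site GGAATG and the GC box GGGCGG.
AREG: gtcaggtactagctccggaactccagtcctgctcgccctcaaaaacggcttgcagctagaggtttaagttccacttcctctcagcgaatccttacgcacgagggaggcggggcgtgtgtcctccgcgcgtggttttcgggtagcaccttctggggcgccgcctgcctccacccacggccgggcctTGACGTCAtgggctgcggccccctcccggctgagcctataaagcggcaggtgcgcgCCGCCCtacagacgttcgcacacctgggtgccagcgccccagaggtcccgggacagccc
EREG: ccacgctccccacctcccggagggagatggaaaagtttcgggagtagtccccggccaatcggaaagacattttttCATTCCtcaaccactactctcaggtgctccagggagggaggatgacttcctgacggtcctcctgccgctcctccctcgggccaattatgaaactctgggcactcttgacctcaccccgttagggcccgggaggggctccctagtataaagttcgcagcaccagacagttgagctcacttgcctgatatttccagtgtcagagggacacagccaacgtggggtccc
The AREG window held a cyclic AMP response element at position -65 from the start site and a GC box on the minus strand (CCGCCC) at position -9. The EREG window held a TEAD site on the minus strand (CATTCC) at position -175 and no match to the other 3 motifs. Of 35116 RefSeq promoter windows of this length, 1.85% held the cyclic AMP response element, 7.71% the AP-1 site, 14.0% the TEAD site and 45% the GC box. Windows of 8 of the 10 members were searched, and the cyclic AMP response element was found in that of AREG and in none of the other 9 windows, 2 of the members having 2 windows each. ERBB3 had no entry among the windows, and NRG1 was left out of the search. These matches describe letters in the sequence and not binding.

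Library totals ranged from 5609327 to 28171901 estimated counts, with both extremes among the A549 3D libraries, and 1 count was worth 0.0394 to 0.195 CPM (counts scaled to a fixed total per library, with TMM-adjusted library sizes). The A549 3D libraries stood apart: ribosomal RNA genes took 3.53% to 16.5% of their counts against 0.311% to 0.483% in A549 2D, their mean fragment length was 133.7 to 141 bases against 176.5 to 187.3 bases, and their biological coefficient of variation was 0.18, against 0.0377 to 0.0554 in the other 3 groups. In MDA-MB-231 the ribosomal RNA share was 4.01% to 6.5% in 3D and 1.12% to 1.18% in 2D. Mean fragment length there was 181.4 to 188.1 bases in 3D against 208.3 to 216.8 bases in 2D. The keratins KRT8 and KRT18 averaged 6050 and 5750 CPM in A549 3D, against 1730 and 2100 CPM in A549 2D, while KRT7 averaged 785 CPM in A549 3D, against 2790 CPM in A549 2D. For MDA-MB-231 they averaged 557 and 423 CPM in 3D, against 367 and 275 CPM in 2D. The surfactant genes SFTPA1, SFTPA2, SFTPB and SFTPC averaged at most 0.162 CPM in either A549 group, whereas the alveolar marker ABCA3 averaged 61.8 CPM in 3D and 44.0 CPM in 2D. In MDA-MB-231 the luminal marker ESR1 averaged at most 0.262 CPM, PGR at most 0.129 CPM and the epithelial cadherin gene CDH1 at most 1.47 CPM, whereas the luminal marker GATA3 averaged 9.77 CPM in 3D and 5.44 CPM in 2D. Of the other cell types a culture could hold, the leukocyte marker CD3E, the endothelial marker ERG and the fibroblast marker DCN were at 0 in all 12 libraries. Other markers on these lists were present: the myeloid marker CD68 averaged 19.5 CPM in A549 3D against 3.73 CPM in A549 2D, and CD14 20.4 CPM against 2.07 CPM. For MDA-MB-231, CD68 averaged 241 CPM in 3D against 99.9 CPM in 2D, CD14 17 CPM against 1.83 CPM, the endothelial marker KDR 12.6 CPM against 10.5 CPM and the collagen gene COL1A1 10.6 CPM against 5.28 CPM. The part of other cells in the results was not tested.

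Which members dominated differed between the lines and, within each line, between the cultures. Levels of different genes are compared in TPM (transcripts scaled to a fixed total per library), which corrects for transcript length. The orders hold for that scale. On CPM per kilobase of transcript, 32 of the group levels moved by at least the SD of their TPM and 8 did not. In A549 3D the order was NRG1 at 26.1 ± 2.71 TPM, ERBB2 at 17.1 ± 4.14, EGFR at 15.6 ± 4.06, AREG at 8.66 ± 1.66, TGFA at 8.46 ± 1.90, EREG at 6.47 ± 0.667, ERBB3 at 6.02 ± 0.530, BTC at 1.45 ± 0.163 and HBEGF at 0.643 ± 0.176 TPM (SD, n = 3). There ERBB2 overlapped EGFR, and the neighbours from AREG down to ERBB3 overlapped each other. In A549 2D the order was EREG at 101 ± 5.56 TPM, AREG at 100 ± 0.0361, NRG1 at 49.1 ± 3.15, EGFR at 30.9 ± 2.92, ERBB2 at 21.1 ± 1.30, TGFA at 6.49 ± 0.332, BTC at 2.79 ± 0.308, HBEGF at 1.92 ± 0.571 and ERBB3 at 1.01 ± 0.0961 TPM. In that group EREG overlapped AREG, BTC overlapped HBEGF, and the other neighbours were apart.

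MDA-MB-231 made far more HBEGF and TGFA RNA than A549. In MDA-MB-231 3D the order was HBEGF at 80.9 ± 1.49 TPM, AREG at 65.7 ± 5.02, NRG1 at 62.0 ± 0.973, TGFA at 61.3 ± 2.37, EGFR at 56.6 ± 1.5, ERBB2 at 28.1 ± 0.817, EREG at 13.7 ± 1.59, ERBB3 at 1.76 ± 0.269 and BTC at 0.743 ± 0.359 TPM. In MDA-MB-231 2D it was EGFR at 112 ± 3.83 TPM, NRG1 at 89.2 ± 5.42, HBEGF at 85.0 ± 0.839, AREG at 60.1 ± 3.98, EREG at 36.6 ± 2.34, TGFA at 33.7 ± 0.681, ERBB2 at 21.2 ± 1.33, ERBB3 at 2.78 ± 0.688 and BTC at 1.06 ± 0.233 TPM. AREG overlapped NRG1 and NRG1 overlapped TGFA in 3D, and NRG1 overlapped HBEGF in 2D, while the other neighbours in these orders were apart. On CPM per kilobase, TGFA (63.4 to 69.4) and EGFR (61.9 to 66.6) overlapped in MDA-MB-231 3D, and NRG1 (54.4 to 57.3) lay below both. EPGN, a ligand of EGFR known from skin, was last in every group.

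Summed over the 7 ligands, RNA reached 51.8 ± 5.14 TPM in A549 3D, against 261 ± 8.75 TPM in A549 2D, and 284 ± 3.10 TPM in MDA-MB-231 3D, against 306 ± 12 TPM in MDA-MB-231 2D (SD, n = 3). AREG and EREG made up 16.7% and 12.6% of the ligand sum in A549 3D, against 38.4% and 38.5% in A549 2D, whereas NRG1 made up 50.4% in A549 3D, against 18.8% in A549 2D. In MDA-MB-231 TGFA made up 21.6% of the ligand sum in 3D, against 11% in 2D, EREG 4.82% against 12%, and HBEGF 28.5% against 27.8%. Among the 3 receptors ERBB3 held 15.8% of the summed TPM in A549 3D, against 1.92% in A549 2D, and 2.04% in both MDA-MB-231 groups. TPM depends on what else is in a library: on log2(TPM + 0.1) the median of all tested genes lay at -0.50 for A549 3D over 2D and at -0.36 for MDA-MB-231 3D over 2D, against 0.03 and 0.00 with TMM scaling. For A549 over MDA-MB-231 it lay at -0.70 in 2D and -0.83 in 3D, against 0.07 and 0.10 with TMM scaling. The sums above are on uncentred TPM and carry these shifts, between the lines as well as between the cultures. Changes below are therefore given on TMM-scaled counts, and relative to that median where the TPM scale gives another direction.

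**Figure D1:**
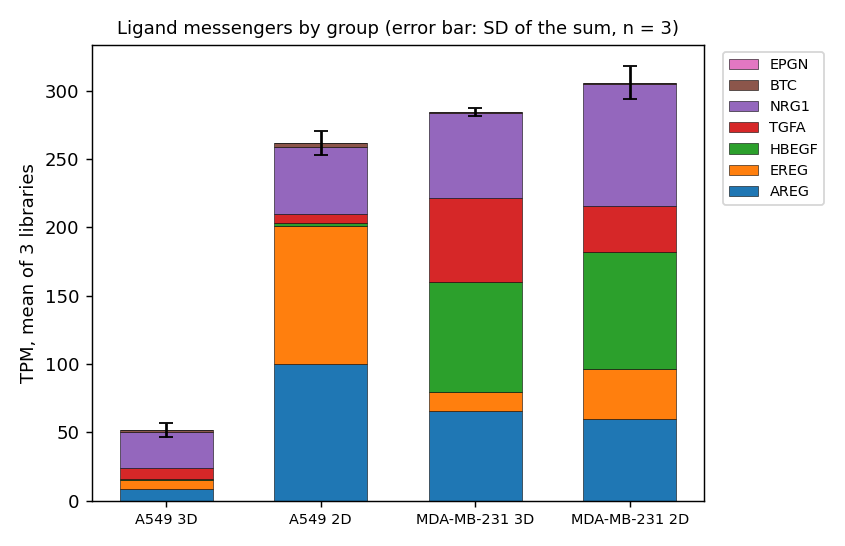
Ligand RNA in each group, as stacked mean TPM of 3 libraries (vertical axis), with the SD of the summed TPM as the error bar. The A549 3D column reaches 51.8 TPM and the A549 2D column 261 TPM, while HBEGF is visible as a large block only in the MDA-MB-231 columns. Column heights are on uncentred TPM, on which the median gene also shifts between the lines and between the cultures.

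ERBB3 was the member that rose most in A549. It gave 33.2, 33.2 and 35.0 CPM in the 3 A549 3D libraries, against 2.71, 2.50 and 2.53 CPM in A549 2D. The groups lay far apart, with a 13.1-fold higher level in 3D (log2 fold change 3.72 ± 0.11 SE, edgeR adjusted p = 7.97e-13). On log2(TPM + 1) the change was 1.80, the lowest of the alternatives, and on median-centred TPM it was 2.97. In MDA-MB-231 it gave 4.00, 4.35 and 4.93 CPM in 3D, against 6.58, 5.74 and 5.77 CPM in 2D, also without overlap but in the other direction (log2 fold change -0.43 ± 0.12, adjusted p = 0.00363). That call for MDA-MB-231 was lost after removal of a trend with transcript length (-0.14, adjusted p = 0.312) and on median-centred TPM (-0.13, adjusted p = 0.495). Of the 6 epithelial markers, 5 rose and 1 fell in A549 3D, where their summed level was 10900 to 14400 CPM, against 6570 to 6760 CPM in A549 2D, while in MDA-MB-231 3D 4 rose and 2 fell, with sums of 1590 to 1710 CPM against 881 to 922 CPM. In MDA-MB-231 the 4 that rose were the keratins. The 2 that fell were EPCAM, with 8.78 CPM in 3D against 23.0 CPM in 2D, and CDH1, with 0.192 CPM against 1.47 CPM. Other lists moved too: in A549 the 6 luminal markers summed to 60.9 to 77.2 CPM in 3D against 13.0 to 14.7 CPM in 2D, and the 6 mesenchymal markers to 3900 to 5580 CPM against 1310 to 1330 CPM, of which FN1 rose and 3 fell. Calls of this kind were common: from 2D to 3D, 34.1% of all genes tested rose and 31.5% fell for A549. The shares for MDA-MB-231 were 33.4% and 34.2%. The part of the markers above in the ERBB3 values was not tested.

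EGFR, the receptor of most of these ligands, fell in both lines. It gave 112, 65.4 and 98.4 CPM in A549 3D, against 136, 139 and 152 CPM in A549 2D, and all 3 values in 3D lay below all 3 in 2D, the lowest in the library with the fewest counts (log2 fold change -0.62 ± 0.13, adjusted p = 0.000609). In MDA-MB-231 it gave 195, 209 and 210 CPM in 3D, against 293, 309 and 301 CPM in 2D (log2 fold change -0.56 ± 0.13, adjusted p = 0.00102). The MDA-MB-231 groups did not overlap, but the call was lost after removal of the length trend (-0.20, adjusted p = 0.15). The change of EGFR in A549 minus that in MDA-MB-231 was -0.06 ± 0.18 (adjusted p = 0.804), and 0.10 without A549 3D replicate 2.

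ERBB2, the receptor without a known ligand, rose in MDA-MB-231. It gave 73.6, 75.8 and 79.5 CPM in MDA-MB-231 3D, against 46.7, 43.5 and 40.3 CPM in MDA-MB-231 2D, and the groups were well separated (log2 fold change 0.81 ± 0.11, adjusted p = 6.55e-06). In A549 it gave 82.7, 70.1 and 101 CPM in 3D, against 75.6, 69.1 and 72.1 CPM in 2D, and the groups overlapped (log2 fold change 0.25 ± 0.11, adjusted p = 0.0537). The A549 value passed without A549 3D replicate 2 (0.36, adjusted p = 0.00152) and under several other scalings (0.28 with DESeq2, adjusted p = 0.0171). It turned to -0.33 on log2(TPM + 0.1), which is 0.19 (adjusted p = 0.123) once each library is centred on its median gene.

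Mean transcript length, which RSEM weights by the abundance of a gene's isoforms, also differed for some receptors. ERBB3, with 2 transcripts in the authors' annotation, had mean lengths of 4815, 5303 and 5315 bases in A549 3D, against 3308, 3646 and 3452 bases in A549 2D, a difference of 1676 bases with no overlap. The A549 2D lengths of ERBB3 rest on only 45 to 49 counts per library, and those in A549 3D on 170 to 888. EGFR, with 9 listed transcripts, had 5488, 5149 and 5415 bases in A549 3D, against 6220, 6076 and 6101 bases in A549 2D, and the means in MDA-MB-231 were 6208 bases in 3D against 6118 bases in 2D. For NRG1, with 23 listed transcripts, A549 3D averaged 3278 ± 173 bases against 3029 ± 84.6 bases in A549 2D, while MDA-MB-231 3D averaged 2530 ± 62.1 bases against 3061 ± 79.4 bases in MDA-MB-231 2D (SD, n = 3). All of these groups were apart, but an exact two-sided permutation test of 3 against 3 libraries cannot go below p = 0.1, which each gave (adjusted p = 0.2 over 24 such comparisons). The ERBB3 lengths overlapped in MDA-MB-231 (4442 ± 866 against 5124 ± 780 bases, exact p = 0.4), on 45 to 90 counts per library in 3D. RSEM assigns isoforms from short fragments, and fragment length differed between the cultures, whose part in these lengths was not tested.

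**Figure D2:**
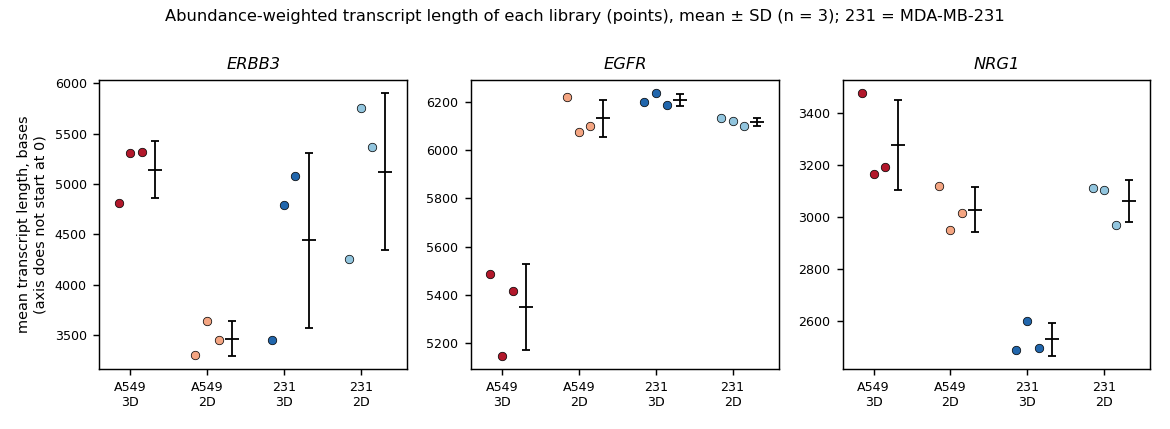
Abundance-weighted mean transcript length in bases (vertical axes, not starting at 0) of ERBB3, EGFR and NRG1 in each library, with the group mean ± SD beside the 3 points. ERBB3 is longer in A549 3D (4815 to 5315 bases) than in A549 2D (3308 to 3646 bases), and NRG1 is shorter in MDA-MB-231 3D than in the other 3 groups. The A549 2D points of ERBB3 rest on 45 to 49 counts per library.

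AREG and EREG, both low-affinity ligands of EGFR, fell together in A549. AREG gave 9.28, 11.3 and 12.6 CPM in A549 3D, against 86.8, 86.5 and 82.7 CPM in A549 2D, a 7.51-fold lower level (log2 fold change -2.91 ± 0.11, adjusted p = 5.03e-12). EREG gave 36.7, 33.8 and 28 CPM in A549 3D, against 331, 362 and 351 CPM in A549 2D, a 10.8-fold lower level (log2 fold change -3.43 ± 0.11, adjusted p = 1.04e-12). For both genes the highest 3D library was far below the lowest 2D library. The authors' annotation lists 2 placements of the AREG transcript under 1 symbol, and the counts used here pool them.

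In MDA-MB-231 the neighbouring genes went different ways. AREG gave 45.4, 39.5 and 44.1 CPM in MDA-MB-231 3D, against 28.6, 27.5 and 30.9 CPM in MDA-MB-231 2D (log2 fold change 0.57 ± 0.09, adjusted p = 5.6e-05). EREG gave 38.6, 38.7 and 32.2 CPM in 3D, against 71.5, 70.7 and 77.7 CPM in 2D (log2 fold change -1.01 ± 0.10, adjusted p = 3.43e-07). Neither pair of groups overlapped, so AREG rose while EREG fell. In CPM, EREG averaged 36.5 in MDA-MB-231 3D and 32.8 in A549 3D, but in TPM 13.7 and 6.47. After removal of the length trend the AREG rise was 0.21 (adjusted p = 0.0465). On log2(TPM + 0.1) without centring the AREG rise was 0.13 (adjusted p = 0.375), and with centring it was 0.60 (adjusted p = 0.000264).

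BTC and EPGN, the outer genes of the same chromosome 4 stretch, were low throughout. BTC, a ligand of EGFR and ERBB4, gave 3.76, 4.88 and 4.30 CPM in A549 3D, against 6.41, 5.42 and 4.89 CPM in A549 2D (log2 fold change -0.38 ± 0.23, adjusted p = 0.152). It gave 0.622, 1.78 and 1.04 CPM in MDA-MB-231 3D, against 1.18, 1.54 and 0.998 CPM in MDA-MB-231 2D (log2 fold change -0.02 ± 0.30, adjusted p = 0.972). It rested on 7 to 116 counts per library. EPGN had 1, 1 and 2 counts in the A549 3D libraries and 2, 2 and 1 in A549 2D; in MDA-MB-231 it had no count in 3D and 0, 2 and 1 counts in 2D. It did not pass the filter on low counts and was not tested, and 0 counts in 51017221 allow a level of up to 0.0588 CPM in MDA-MB-231 3D, counting error only.

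TGFA, a high-affinity ligand of EGFR, rose in both lines. It gave 38.1, 33.8 and 46.5 CPM in A549 3D, against 20.5, 20.7 and 21.4 CPM in A549 2D (log2 fold change 0.95 ± 0.10, adjusted p = 7.39e-07), and the change was 0.32 on log2(TPM + 1) and 0.87 on centred TPM. In MDA-MB-231 it gave 145, 158 and 153 CPM in 3D, against 61.9, 64.0 and 62.2 CPM in 2D (log2 fold change 1.28 ± 0.09, adjusted p = 1.12e-08). The groups were apart in each line, and TGFA was the one ligand of the 7 that was called higher in both. The change in A549 minus that in MDA-MB-231 was -0.33 ± 0.14 (adjusted p = 0.0518), which passed under several alternatives, with values between -0.30 and -0.52. It also passed without A549 3D replicate 3 (-0.49, adjusted p = 0.000992) and without MDA-MB-231 3D replicate 1 (-0.39, adjusted p = 0.0422).

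HBEGF, which binds heparan sulphate as well as EGFR, was abundant in MDA-MB-231 and low in A549. It gave 102, 108 and 107 CPM in MDA-MB-231 3D, against 82.5, 83.2 and 82.3 CPM in MDA-MB-231 2D (log2 fold change 0.35 ± 0.10, adjusted p = 0.00403), a rise that became -0.07 on log2(TPM + 0.1) (adjusted p = 0.779) and 0.41 relative to the median gene of that scale (adjusted p = 0.046). In A549 it gave 1.25, 1.56 and 1.97 CPM in 3D, against 2.60, 2.87 and 4.21 CPM in 2D (log2 fold change -0.88 ± 0.21, adjusted p = 0.00175). Neither line's groups overlapped, but the A549 libraries held only 8 to 75 counts of it.

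NRG1, the ligand of ERBB3, fell slightly in both lines, and neighbouring groups overlapped in its order of levels. It gave 105, 82.6 and 89.7 CPM in A549 3D, against 108, 105 and 112 CPM in A549 2D, and the highest 3D library lay within 1 CPM of the lowest 2D library (log2 fold change -0.23 ± 0.08, adjusted p = 0.0225). That call was lost with the 6 A549 libraries fitted alone (adjusted p = 0.0964), without A549 2D replicate 3 (adjusted p = 0.0695), without A549 3D replicate 3 (adjusted p = 0.0542) and after removal of the length trend (-0.13, adjusted p = 0.161). In MDA-MB-231 it gave 85.6, 90.2 and 85.9 CPM in 3D, against 112, 116 and 117 CPM in 2D, without overlap (log2 fold change -0.40 ± 0.08, adjusted p = 4e-04). On median-centred TPM, which takes up the shorter mean transcript described above, the MDA-MB-231 value was -0.05 (adjusted p = 0.512).

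**Figure D3:**
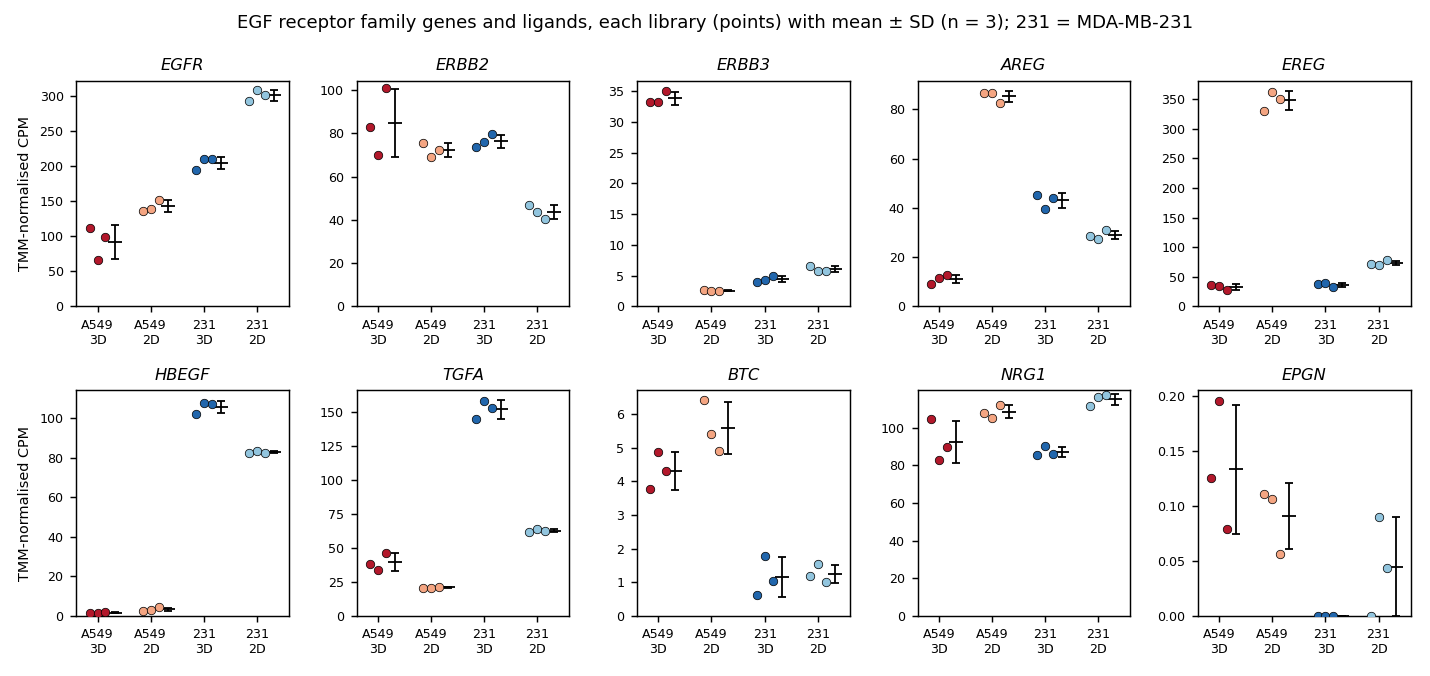
TMM-normalised CPM (vertical axes, from 0) of the 10 genes in each of the 12 libraries, with the group mean ± SD beside the 3 points. ERBB3 is high in A549 3D alone (33.2 to 35.0 CPM), AREG and EREG are highest in A549 2D, and TGFA and HBEGF are highest in MDA-MB-231 3D; HBEGF in MDA-MB-231 and ERBB2 in A549 have the other direction between 3D and 2D on uncentred TPM.

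Counted over the 9 members that passed the filter, 2 rose (ERBB3 and TGFA) and 5 fell (EGFR, AREG, EREG, HBEGF and NRG1) in A549 3D against A549 2D. Of all 15304 genes tested, 34.1% rose and 31.5% fell in that comparison, so a change as such was common. The median log2 fold change was -0.38 over the 9 members and 0.03 over all genes. In MDA-MB-231 3D against MDA-MB-231 2D, 4 rose (ERBB2, AREG, HBEGF and TGFA) and 4 fell (EGFR, ERBB3, EREG and NRG1), beside 33.4% and 34.2% of all genes tested. The median over the 9 members was -0.02 there and 0.00 over all genes. On uncentred TPM the counts were 2 higher and 7 lower in A549 and 2 higher and 4 lower in MDA-MB-231. The shares above do not apply to that scale, and its own are not given here. On log2(TPM + 0.1) the median of all genes tested lay at -0.50 in A549 and -0.36 in MDA-MB-231, which favours lower calls for any gene.

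**Figure D4:**
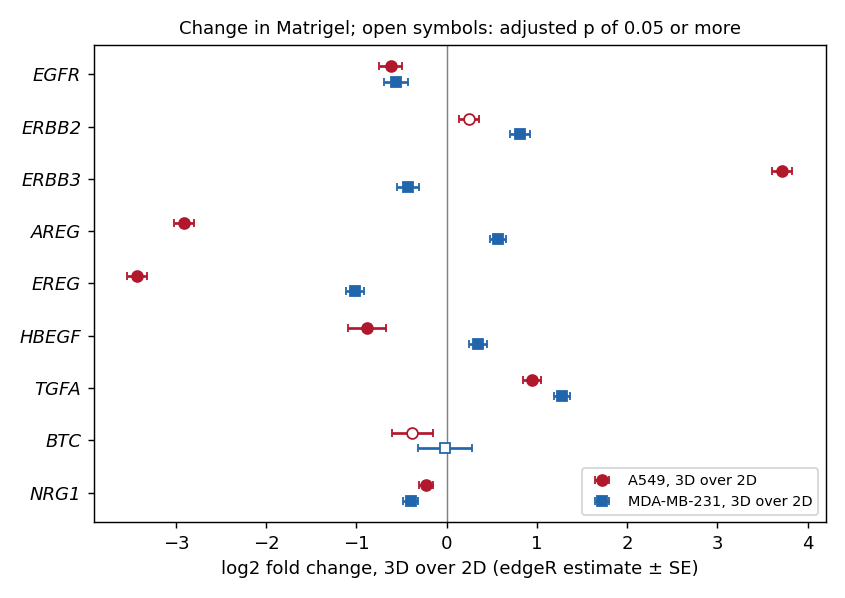
Log2 fold change of 3D over 2D (horizontal axis, edgeR estimate ± SE on TMM-scaled counts) for the 9 tested members in A549 (circles) and MDA-MB-231 (squares); filled symbols passed an adjusted p of 0.05. ERBB3 (3.72 in A549, -0.43 in MDA-MB-231) and AREG (-2.91 and 0.57) lie on opposite sides of 0 in the 2 lines, while TGFA is right of 0 and EGFR and EREG left of 0 in both; on uncentred TPM, ERBB2 in A549 and HBEGF in MDA-MB-231 change sides.

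The change from 2D to 3D differed between the lines for 5 of the 9 members, a share near that of all genes tested (8582 of 15304). The change in A549 minus the change in MDA-MB-231 was 4.15 ± 0.16 on the log2 scale for ERBB3 (adjusted p = 5.02e-11), -3.47 ± 0.14 for AREG (adjusted p = 7.08e-11) and -2.42 ± 0.14 for EREG (adjusted p = 3.12e-09). It was -1.24 ± 0.23 for HBEGF (adjusted p = 0.000308) and -0.56 ± 0.15 for ERBB2 (adjusted p = 0.00503). So 1 member was called higher and 4 lower, beside 29.3% and 26.7% of all genes tested. For NRG1 the difference was 0.17 ± 0.12 (adjusted p = 0.23), but -0.35 on median-centred TPM (adjusted p = 0.00406), and for BTC it was -0.36 ± 0.38 (adjusted p = 0.45).

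Between the lines in 2D, A549 had more AREG, EREG and BTC and less HBEGF and TGFA RNA than MDA-MB-231. The log2 fold changes of A549 over MDA-MB-231 were 1.56 ± 0.09 for AREG, 2.25 ± 0.10 for EREG, 2.17 ± 0.24 for BTC, -4.68 ± 0.13 for HBEGF and -1.59 ± 0.10 for TGFA (adjusted p at most 5.13e-07). Of the receptors, EGFR was lower in A549 (-1.08 ± 0.13, adjusted p = 9.98e-07), ERBB3 was lower (-1.22 ± 0.12, adjusted p = 1.7e-07) and ERBB2 was higher (0.73 ± 0.11, adjusted p = 1.1e-05), although ERBB2 gave -0.01 on uncentred TPM and 0.71 on centred TPM. That made 4 members higher and 4 lower, beside 42.8% and 38.8% of all genes tested, with NRG1 not past the threshold (-0.08 ± 0.08, adjusted p = 0.335). NRG1 did pass as lower on uncentred log2(TPM + 0.1) (-0.86, adjusted p = 1.34e-06) and with the 6 libraries fitted alone (-0.12, adjusted p = 0.0231). On centred TPM it gave -0.14 (adjusted p = 0.0516).

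In Matrigel the order of the lines changed for ERBB3 and AREG. ERBB3 was higher in A549 3D than in MDA-MB-231 3D (log2 fold change 2.92 ± 0.11, adjusted p = 6.33e-13) and AREG was lower (-1.92 ± 0.11, adjusted p = 1.31e-10). EREG, which had been higher in A549 in 2D, overlapped in CPM between the lines in 3D (-0.17 ± 0.11, adjusted p = 0.148), although it passed as lower without A549 3D replicate 1 (-0.32, adjusted p = 0.0183) and without MDA-MB-231 3D replicate 3 (-0.26, adjusted p = 0.0453). It also passed as lower with the length trend removed (-0.27, adjusted p = 0.0278). The same held on log2(TPM + 0.1) without centring (-1.07, adjusted p = 9.27e-07) and with centring (-0.31, adjusted p = 0.023). HBEGF stayed 60.4-fold lower in A549 (log2 fold change -5.92 ± 0.16), TGFA was lower (-1.91 ± 0.10), EGFR was lower (-1.14 ± 0.13) and BTC was higher (1.81 ± 0.28), all with an adjusted p of at most 1.92e-05. Of the 9 members 2 were higher and 4 lower, beside 43.9% and 39.2% of all genes tested. ERBB2 (0.17 ± 0.11, adjusted p = 0.157) and NRG1 (0.08 ± 0.08, adjusted p = 0.353) did not pass. On uncentred TPM both were lower and passed (-0.74, adjusted p = 0.000273, and -1.25, adjusted p = 3.43e-08), and on centred TPM ERBB2 gave 0.02 (adjusted p = 0.888) and NRG1 -0.49 (adjusted p = 1.01e-05). Without A549 3D replicate 2 the ERBB2 value was 0.28 (adjusted p = 0.00709), and without A549 3D replicate 1 the NRG1 value was -0.05.

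Among the remaining genes of the family, ERBB4, the fourth receptor, had 4 counts over the 3 A549 3D libraries and 0 over the 3 A549 2D libraries, and 2 and 12 counts in MDA-MB-231 3D and 2D. NRG3, a neuregulin of the nervous system, had at most 1 count in any group. EGF, the name-giving ligand, averaged 4.75 ± 1.59 CPM in A549 3D against 1.43 ± 0.424 CPM in A549 2D (log2 fold change 1.84 ± 0.28, adjusted p = 3.01e-05) and 1.37 ± 0.458 CPM in MDA-MB-231 3D against 2.05 ± 0.0721 CPM in MDA-MB-231 2D (adjusted p = 0.0793). The ERBB4 ligand NRG4 averaged 3.37 ± 0.418 CPM in A549 3D against 1.43 ± 0.297 CPM in A549 2D (log2 fold change 1.25 ± 0.25, adjusted p = 0.000445), and in MDA-MB-231 it had 1 count in 3D and 14 counts in 2D over 3 libraries each. The neuregulin NRG2 rose in MDA-MB-231 3D (log2 fold change 1.20 ± 0.28, adjusted p = 0.0014) and was alike in A549 (-0.03 ± 0.22, adjusted p = 0.926). Over the 3 tested genes of this list, 2 rose and none fell in A549, beside 34.1% and 31.5% of all genes tested. In MDA-MB-231 1 rose and 1 fell (NRG4, on the few counts above), beside 33.4% and 34.2%.

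Of 12 genes for ligand shedding and maturation, 4 rose and 5 fell in A549 3D, beside 34.1% and 31.5% of all genes tested, and 6 rose and 3 fell in MDA-MB-231 3D, beside 33.4% and 34.2%. The list's medians were -0.09 and 0.41 beside 0.03 and 0.00 over all genes. On log2(TPM + 0.1) these counts were 0 and 8 in A549 and 2 and 4 in MDA-MB-231, and after centring 2 and 5, and 8 and 3. Counts on TPM, here and for the lists below, have no share of all genes beside them. Without centring, the median of all genes tested lay at -0.50 in A549 and -0.36 in MDA-MB-231. In A549 the count of those that rose was 2 without A549 2D replicate 2 or without A549 3D replicate 3. ADAM19, a protease that can cleave neuregulins, averaged 1.66 ± 0.257 CPM in A549 3D against 46.9 ± 1.44 CPM in A549 2D (log2 fold change -4.73 ± 0.11, adjusted p = 7.23e-14), while MDA-MB-231 gave 71.4 ± 0.589 CPM in 3D against 72.0 ± 2.55 CPM in 2D (-0.01 ± 0.07, adjusted p = 0.915). ADAM15, another membrane protease, rose in both lines (0.82 ± 0.09 in A549, adjusted p = 1.75e-06, and 1.68 ± 0.09 in MDA-MB-231, adjusted p = 9.73e-10). ADAM10, the main sheddase of EGF and BTC, fell in MDA-MB-231 3D, with 101 ± 4.28 CPM against 201 ± 10.6 CPM in 2D (-0.99 ± 0.08, adjusted p = 2.9e-08), and was 247 ± 21.2 CPM in A549 3D against 259 ± 1.90 CPM in A549 2D (-0.07 ± 0.08, adjusted p = 0.408). RHBDF2, the pseudoprotease that carries ADAM17 to the surface, fell in A549 (-0.85 ± 0.13, adjusted p = 3.42e-05) and rose in MDA-MB-231 (1.09 ± 0.12, adjusted p = 6.54e-07). ADAM17 itself, the main sheddase of AREG, EREG, HBEGF and TGFA and named here for that role after its values were seen, fell in both lines (-0.54 ± 0.09, adjusted p = 5.44e-05, and -0.49 ± 0.09, adjusted p = 0.000112).

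Of 28 receptor adaptors and effectors, 9 rose and 10 fell in A549 3D, beside 34.1% and 31.5% of all genes tested, and 9 rose and 13 fell in MDA-MB-231 3D, beside 33.4% and 34.2%, where removal of the length trend gave 14 and 7. On log2(TPM + 0.1) the counts were 5 and 16 in A549 and 3 and 15 in MDA-MB-231, and after centring 10 and 11, and 10 and 12. EPS8, a substrate of EGFR that acts on actin, averaged 306 ± 26.2 CPM in A549 3D against 45.9 ± 2.30 CPM in A549 2D (log2 fold change 2.74 ± 0.09, adjusted p = 9.99e-13) and fell in MDA-MB-231 (-0.80 ± 0.09, adjusted p = 7.71e-07). The kinase gene SRC rose in both lines (1.79 ± 0.09, adjusted p = 1.91e-10, in A549 and 0.85 ± 0.10, adjusted p = 1.38e-06, in MDA-MB-231). HRAS, a small GTPase downstream of the receptors, rose in MDA-MB-231 (1.29 ± 0.10, adjusted p = 4e-08) and did not pass in A549 (-0.20 ± 0.11, adjusted p = 0.123). VAV3, a guanine nucleotide exchange factor, rose in A549 (1.60 ± 0.11, adjusted p = 3.27e-08) and had 0 and 2 counts over the 3 libraries of MDA-MB-231 3D and 2D.

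Of the 19 tested genes of receptor restraint and degradation, 4 rose and 7 fell in A549 3D, beside 34.1% and 31.5% of all genes tested, and 8 rose and 8 fell in MDA-MB-231 3D, beside 33.4% and 34.2%. On log2(TPM + 0.1) the counts were 3 and 15 in A549 and 3 and 10 in MDA-MB-231, and after centring 4 and 7, and 8 and 6. SOCS3, a feedback inhibitor of cytokine receptors, averaged 5.66 ± 1.31 CPM in A549 3D against 42.5 ± 2.70 CPM in A549 2D (-2.80 ± 0.12, adjusted p = 3.38e-11) and also fell in MDA-MB-231 (-0.48 ± 0.10, adjusted p = 0.000656). SOCS4 and SOCS5, which can bind EGFR and lower its level, fell in both lines. Their log2 fold changes were -0.43 and -0.64 for A549, and -1.62 and -1.05 for MDA-MB-231 (adjusted p at most 0.00864). LRIG1, a membrane protein that promotes degradation of EGFR family receptors, fell in A549 3D, with 12.2 ± 1.58 CPM against 19.3 ± 1.34 CPM in 2D (-0.63 ± 0.11, adjusted p = 8.8e-05), and rose in MDA-MB-231 3D, with 42.8 ± 0.586 CPM against 18.7 ± 1.22 CPM in 2D (1.20 ± 0.09, adjusted p = 2.34e-08).

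Of the 10 genes of ERK pathway output, 5 rose and 4 fell in A549 3D, beside 34.1% and 31.5% of all genes tested, and 8 rose and 1 fell in MDA-MB-231 3D, beside 33.4% and 34.2%. The difference between these counts was not tested. The one that fell was the ephrin receptor gene EPHA4 (-0.52, adjusted p = 0.00164), named after its values were seen, which rose in A549 (1.24, adjusted p = 2e-04). The MDA-MB-231 count of 8 became 5 without MDA-MB-231 2D replicate 1 and 5 with no filter on low counts, and it was 1 or 2 on uncentred TPM and 8 on centred TPM. ETV4, an ETS factor induced by ERK signalling, rose in both lines, with 131 ± 21.2 CPM in A549 3D against 26.5 ± 3.14 CPM in A549 2D (2.31 ± 0.13, adjusted p = 5.36e-10) and 89.1 ± 1.66 CPM in MDA-MB-231 3D against 33.8 ± 4.99 CPM in MDA-MB-231 2D (1.40 ± 0.12, adjusted p = 1.12e-07). The ERK phosphatase DUSP6 rose by 1.61 ± 0.11 in A549 (adjusted p = 5.58e-09) and 0.24 ± 0.09 in MDA-MB-231 (adjusted p = 0.0329). The feedback inhibitor SPRY4 rose by 1.44 ± 0.14 in A549 (adjusted p = 2.21e-07) and 0.73 ± 0.10 in MDA-MB-231 (adjusted p = 6.54e-06). Its relative SPRY2 fell in A549 (-1.32 ± 0.12, adjusted p = 9.36e-08) and rose in MDA-MB-231 (0.40 ± 0.09, adjusted p = 0.000818).

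The same 10 genes were lower in A549 than in MDA-MB-231 in 2D, all 10 of them, and 9 were lower and 1 (ETV4) higher in 3D, beside 38.8% of all genes lower in 2D, and 39.2% lower and 43.9% higher in 3D. In 2D the largest difference of the 10 was that of DUSP6, with a log2 fold change of A549 over MDA-MB-231 of -4.09 (adjusted p = 1.97e-14). In 3D it was that of SPRY2 (-3.70, adjusted p = 7.64e-14), with DUSP6 at -2.71 (adjusted p = 1.13e-12). The median over the 10 genes was -1.52 in 2D and -1.87 in 3D, beside 0.07 and 0.10 over all genes tested.

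**Figure D5:**
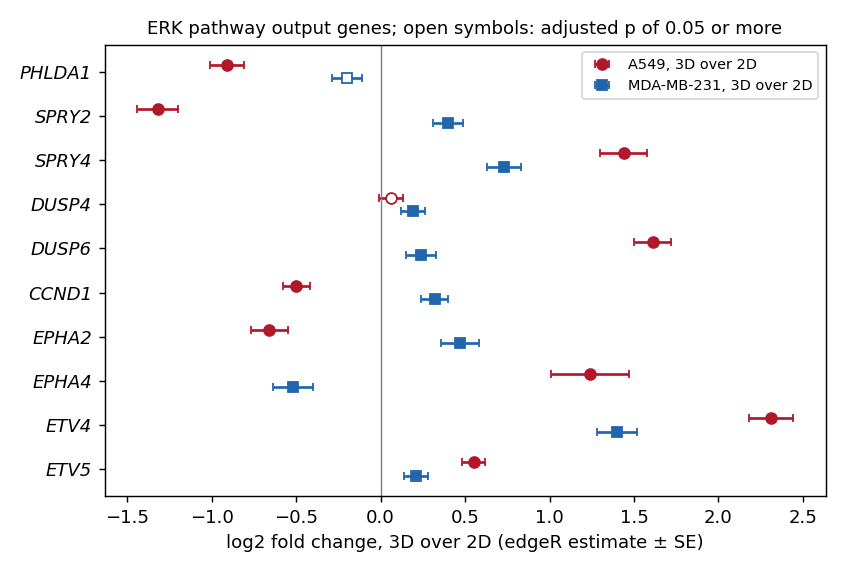
Log2 fold change of 3D over 2D (horizontal axis, edgeR estimate ± SE on TMM-scaled counts) of 10 ERK pathway output genes in A549 (circles) and MDA-MB-231 (squares); filled symbols passed an adjusted p of 0.05. ETV4, ETV5, SPRY4 and DUSP6 are filled and right of 0 in both lines, and SPRY2, CCND1 and EPHA2 lie left of 0 in A549 and right of 0 in MDA-MB-231; on uncentred TPM only 1 or 2 of the genes rose in MDA-MB-231.

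Across the 12 libraries, the genes whose pattern was closest to a member's were found by the root mean square distance of centred log2 CPM among 12498 genes, as a description. EREG was nearest to DUSP1, an immediate-early phosphatase (0.168, against 1.366 for the spread of EREG itself), and next to the sulphate transporter gene SLC26A2 (0.248). DUSP1 averaged 21.7 CPM in A549 3D against 198 CPM in A549 2D. The MDA-MB-231 libraries averaged 25 CPM in 3D against 47.8 CPM in 2D. AREG was nearest to FZD2, a Wnt receptor (0.223), and then to ANKRD29 (0.347). ERBB3 was nearest to BCL6, a transcriptional repressor (0.275), and then to TC2N (0.354). TGFA was nearest to ZC3H12A, an RNase that trims inflammatory transcripts (0.114), and then to CDC42EP2 (0.144). HBEGF was nearest to PXDN (0.229) and IL15RA (0.308), EGFR to DHX33 (0.130) and CCDC84 (0.131), ERBB2 to PSMB3 (0.067) and LAMTOR2 (0.087), NRG1 to MYH10 (0.083) and NR2C2 (0.084), and BTC to PTPN13 (0.290) and TYW1B (0.306), all distances being in log2 units. The spread of ERBB2 itself was only 0.386 and that of NRG1 0.182, so their small distances do not mean closer matches than that of EREG.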

How the data were processed

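Per the labels' protocols, total RNA was made into stranded, ribosomal RNA depleted libraries; per the submitters' processing notes, RSEM was used with hg19, and no other step is given in the sources used here. The authors deposited 1 gene table per library with expected counts, TPM (transcripts scaled to a fixed total per library), FPKM (scaled fragments per kilobase, used for no result) and mean transcript length in bases. Expected counts were rounded, genes were filtered with filterByExpr (15304 of 27968 kept) and scaled by TMM, and 1 model over the 4 groups and 12 libraries was fitted by edgeR 4.0.16 in R 4.3.3 (quasi-likelihood test, Benjamini-Hochberg adjustment over all genes tested, threshold 0.05). SE is the estimate divided by the root of the test statistic. Alternatives used other scalings and filters, DESeq2 1.42.0, limma 3.58.1 on log2(TPM + 1) and log2(TPM + 0.1), a lowess removal of a trend with transcript length, the 6 libraries alone, and each library left out; median-centred TPM was added after the data were seen. The tests were run on simulated data first. Beside all members, up to 4 genes of each list with the smallest p in either 3D comparison, and the 2 nearest patterns per member, are named; the members and lists were chosen with earlier results of these data known. Libraries of a group differed beyond sampling noise (chi-square per degree of freedom 2.71 to 163), so none was counted as a duplicate. Counts cover counting error and the spread between libraries. Promoter windows are RefSeq's, GRCh38.p14, whereas the deposited tables are on hg19.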

Additional observations from a re-analysis of the deposited data

Results flagged for a closer look

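The change in 3D culture differed between A549 and MDA-MB-231 (interaction term, edgeR, adjusted over all genes tested) for 5 members. The change in A549 minus that in MDA-MB-231, on the log2 scale, was 4.15 for ERBB3, -3.47 for AREG, -2.42 for EREG, -1.24 for HBEGF and -0.56 for ERBB2. Beside them, 18 of the 19 named genes of the other lists differed in the same test, in which 29.3% of all genes tested were called higher and 26.7% lower. Those 19 had been named for the smallest p in either 3D comparison, which favours a difference. Among ligand genes outside the members the difference was 2.45 for EGF, -1.23 for NRG2 and 4.18 for NRG4, the last resting on 1 and 14 counts in MDA-MB-231 3D and 2D. Among shedding genes it was 0.91 for ADAM10, -0.86 for ADAM15, -4.72 for ADAM19 and -1.95 for RHBDF2. Among adaptors and effectors it was -1.49 for HRAS, 0.95 for SRC and 3.53 for EPS8. Among restraint genes it was -1.83 for LRIG1, -2.32 for SOCS3, 1.19 for SOCS4 and 0.42 for SOCS5. Among ERK output genes it was -1.72 for SPRY2, 0.70 for SPRY4, 1.38 for DUSP6 and 0.92 for ETV4. Shorter fragments and a higher ribosomal RNA share than in 2D go with the 3D libraries of both lines, and their part in these differences was not tested.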

How the results depend on the processing

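The 3D changes of ERBB3, AREG, EREG, TGFA, EGFR and HBEGF in A549, and those of ERBB2, EREG and TGFA in MDA-MB-231, kept direction and call in every alternative run. The main model shares its spread with groups tighter than A549 3D. With the 6 A549 libraries fitted alone, adjusted p was 0.00728 for EGFR, 0.0158 for HBEGF and 4.87e-08 for ERBB3 (edgeR), larger than in the main model. In MDA-MB-231 the members called higher numbered 2 on log2(TPM + 1) and 2 on log2(TPM + 0.1), and those called lower numbered 2 with the length trend removed and 2 on centred TPM. For A549 against MDA-MB-231 in 3D, 7 members were lower on both TPM scales. The median of all genes tested lay at -0.64 on log2(TPM + 1) and -0.83 on log2(TPM + 0.1) there. On log2(TPM + 1) and log2(TPM + 0.1) the signs turned for ERBB2 in A549 3D against 2D (-0.31 and -0.33), HBEGF in MDA-MB-231 (-0.07 and -0.07), the NRG1 difference between lines (-0.37 and -0.39, and -0.35 centred), ERBB2 between lines in 2D (-0.01 and -0.01) and in 3D (-0.71 and -0.74) and NRG1 between lines in 3D (-1.22 and -1.25, and -0.49 centred). The EGFR difference between lines was 0.01 on log2(TPM + 1) and 0.02 on centred TPM, and BTC in MDA-MB-231 was 0.00 with the length trend removed; the cause was not tested. Leaving out 1 library gave ranges of -0.50 to 0.20 for BTC in MDA-MB-231, -0.21 to 0.10 for the EGFR difference, -0.60 to 0.11 for the BTC difference and -0.05 to 0.14 for NRG1 between lines in 3D. Same-numbered libraries showed no clear shared deviation (correlations of -0.073 to 0.097). With 3 libraries per group this cannot show whether the numbers pair them, and the labels do not say. With the replicate number as a block the members called numbered 2 higher and 5 lower in A549 and 4 and 4 in MDA-MB-231, and no call on a member changed. Depth limits EPGN, BTC, HBEGF in A549, and ERBB3 in A549 2D and MDA-MB-231 3D.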
